A study of Mus musculus with 12 samples.

Results

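The transcripts described here are those of 34 lysosomal genes, chosen by name from a list of sulfatases, glycosidases, lipid hydrolases, peptidases and proteins of the lysosomal membrane, with cathepsins and the proton pump left out. All 34 were among the 47643 genes of the count table, and all 34 passed the filter on low counts that left 13681 genes for testing. The libraries came from bulk RNA of osteoclasts, the multinucleated cells that resorb bone, differentiated from BALB/c wild-type bone marrow monocytes (BMMs) with M-CSF and RANKL and harvested on day 3. OCsCtr received no further stimulus, OCsEo shared their well with eosinophils at a ratio of 1 BMM to 2 eosinophils, and OCsEoS received eosinophil culture supernatant at a 1:2 dilution. Both stimuli were present for the first 48 h and were then washed off. The eosinophils were sorted by surface markers from pooled blood and bone marrow of IL-5 transgenic 4get mice, and no group with another added cell type or another conditioned medium was analysed here. Each group held 4 libraries, which the study's methods describe as biological replicates. Since nothing in the labels ties them to separate mice, the p-values measure the spread between these libraries.

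Lysosomes are acidic organelles in which soluble hydrolases, delivered mainly by the mannose 6-phosphate route, take apart glycosaminoglycans, glycolipids, glycogen, proteins and cholesterol esters, while heavily glycosylated membrane proteins line the inside of the limiting membrane and carriers export the products. In a resorbing osteoclast, lysosomes fuse with the membrane facing bone to form the ruffled border and empty their enzymes and acid into the resorption space, so lysosomal membrane proteins are also ruffled border proteins. Many genes of this kind are controlled by the MiT/TFE transcription factors, which bind E-boxes in promoters.

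The values below are CPM, that is, read counts relative to the total of the library, scaled for composition between libraries. A gene is said to have risen or fallen where the Benjamini-Hochberg adjusted p of edgeR's quasi-likelihood test over all genes was below 0.05, and it is said to be called where its log2 fold change also exceeded 0.5 in size. Total counts ran from 27837530 to 40327869 per library, no library pair in a group was as alike as sampling noise allows, and the defining osteoclast genes *Ctsk* and *Acp5* stood at 12122 ± 1081 and 7158 ± 637 CPM (SD, n = 4) in OCsCtr. The summed level of 10 osteoclast markers was 28358 to 34496 CPM in OCsCtr, against 18093 to 23205 in OCsEo and 14942 to 22171 in OCsEoS, so the osteoclast markers themselves were lower in both stimulated groups. In bulk RNA, fewer osteoclasts and less RNA per osteoclast cannot be told apart, and the part of osteoclast number in the changes below was not tested.

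In unstimulated osteoclasts the lysosomal transcripts spanned a wide range. Set per kb of gene length, the highest was *Psap*, the precursor of the saposins that present sphingolipids to their hydrolases, at 739 ± 74.8 CPM per kb (SD, n = 4). It was followed by *Hexa*, the alpha subunit of beta-hexosaminidase, at 640 ± 54.6 CPM per kb and by *Npc2*, the soluble cholesterol carrier, at 583 ± 38.2 CPM per kb. The lowest was *Idua*, which cleaves iduronic acid from dermatan and heparan sulfate, at 4.55 ± 0.321 CPM per kb, below *Scarb2* at 6.8 ± 1.04 and *Npc1*, the membrane partner of *Npc2* in cholesterol egress, at 7.03 CPM per kb. The highest level was 163 times the lowest. In this order 9 genes stood above 100 CPM per kb and 12 below 20, and 23 of the 33 neighbouring pairs overlapped within their SD. The soluble and membrane partners of cholesterol egress thus stood far apart in level.

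**Figure D1:**
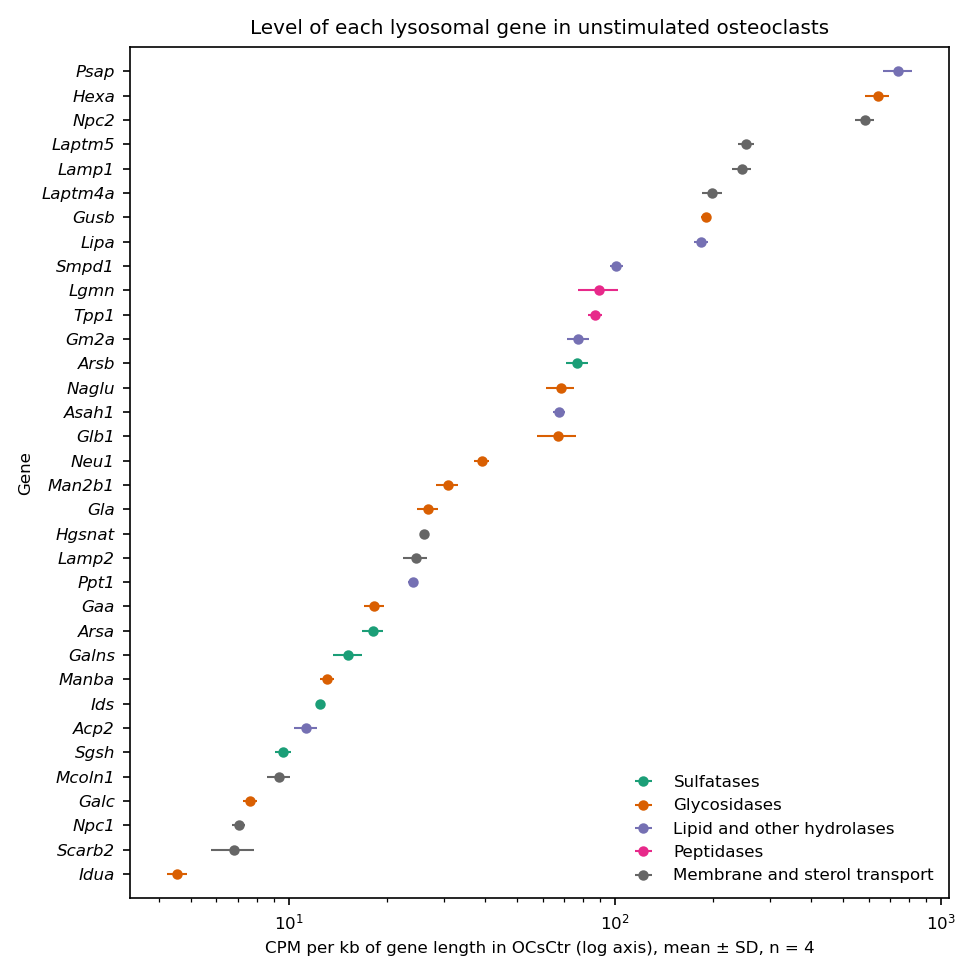
Mean level of each of the 34 lysosomal genes in OCsCtr, in CPM per kb of gene length on a log axis, with bars for the SD over 4 libraries and colours for the role of the protein. *Psap*, *Hexa* and *Npc2* sit at the top, from 583 to 739 CPM per kb, and *Npc1*, *Scarb2* and *Idua* are the lowest.

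Promoter sequence was available from RefSeq (GRCm38.p6) for 30 of the 34 genes. The E-box CACGTG, a palindrome that reads the same on both strands, was found for 9 of these 30 genes (30%), counting any promoter listed for a gene, beside 11.7% of the 9696 tested genes with a promoter and 8.09% of all 27025 genes in the promoter table. The longer palindrome TCACGTGA, which contains CACGTG, was in 2 of 30 (6.67%, beside 2.16% of tested genes), those of *Gla* and *Mcoln1*. CATGTG, searched on both strands, was in 6 of 30 (20%, beside 10.6% of tested genes and 15.9% of all). The 9 genes with CACGTG were *Arsa*, *Gaa*, *Gla*, *Glb1*, *Lamp1*, *Lgmn*, *Mcoln1*, *Naglu* and *Sgsh*. In *Lgmn*, *Naglu* and *Sgsh* the E-box lies at or after the gene start of the deposited table, which is upstream of the RefSeq start. The other 6 are shown as the 100 bases that end before both starts, 5′ to 3′ on the gene's strand, with each CACGTG in capitals, because genes of both directions of change carry it. These windows hold 1 of the 2 CACGTG sites of *Mcoln1*, 2 of the 4 of *Lamp1* and 1 of the 2 of *Gla*. The TCACGTGA of *Mcoln1* lies outside its window.
*Lamp1*, which rose, chr8:13159035-13159134, + strand: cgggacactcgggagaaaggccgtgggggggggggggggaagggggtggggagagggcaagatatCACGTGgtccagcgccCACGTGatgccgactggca
*Mcoln1*, which fell, chr8:3500357-3500456, + strand: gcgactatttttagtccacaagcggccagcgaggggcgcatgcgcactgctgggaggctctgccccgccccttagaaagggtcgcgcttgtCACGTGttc
*Glb1*, which fell, chr9:114400976-114401075, + strand: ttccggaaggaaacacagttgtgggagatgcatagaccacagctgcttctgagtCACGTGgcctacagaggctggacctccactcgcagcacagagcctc
*Gaa*, which fell, chr11:119267787-119267886, + strand: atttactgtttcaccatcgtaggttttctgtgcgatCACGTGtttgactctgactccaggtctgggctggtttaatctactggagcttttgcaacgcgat
*Arsa*, which fell, chr15:89477426-89477525, − strand: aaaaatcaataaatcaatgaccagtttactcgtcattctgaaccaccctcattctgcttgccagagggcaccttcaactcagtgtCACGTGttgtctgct
*Gla*, which passed the test in neither comparison, chrX:134601126-134601225, − strand: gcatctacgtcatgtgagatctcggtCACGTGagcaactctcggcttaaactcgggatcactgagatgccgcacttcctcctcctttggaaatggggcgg
A match is a description of these letters and not a binding site. Of the 9 genes with CACGTG, 2 rose and 6 fell in OCsEo, and 1 rose and 6 fell in OCsEoS, against OCsCtr. Of the 21 without it, 4 rose and 5 fell in OCsEo, and 4 rose and 13 fell in OCsEoS. Among all tested genes 9.06% rose and 8.35% fell in OCsEo, and 11.8% rose and 11.2% fell in OCsEoS.

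In osteoclasts that had met eosinophils, the lysosomal genes moved both ways. Against OCsCtr, 6 of the 34 rose (*Psap*, *Lamp1*, *Scarb2*, *Lipa*, *Lgmn* and *Lamp2*), 12 fell, led by *Arsb*, *Smpd1*, *Sgsh* and *Glb1*, and 16 did not pass the test. Among all tested genes 9.06% rose and 8.35% fell, while the shares of the 34 were 17.6% and 35.3%. Past the fold threshold as well, 3 genes were called higher, where 3.27% of all genes were, and 4 were called lower, where 2.61% of all genes were. The 4 libraries of each group did not overlap for 6 genes that were higher and 13 that were lower (10.5% and 10.9% of all genes). The median log2 fold change of the 34 was −0.14, with 24 of them below 0, and that of all tested genes was −0.007. Without OCsEo 4 none of *Psap*, *Lamp1* and *Scarb2* stayed above the fold threshold (each at 0.49) and 4 genes were called in all; without OCsCtr 1 or without OCsCtr 2, 4 genes were called. The 7 called genes kept an adjusted p below 0.05 under every alternative tried.

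With eosinophil supernatant the balance lay further on the lower side. Against OCsCtr, 21 of the 34 fell, 5 rose (*Lamp2*, *Lipa*, *Scarb2*, *Lamp1* and *Laptm4a*) and 8 did not pass the test, where 11.2% of all tested genes fell and 11.8% rose. The genes called lower were *Arsb*, *Sgsh*, *Glb1*, *Idua*, *Manba* and *Tpp1*, 6 of 34 beside 4.11% of all genes. By edgeR 0 of the 34 were called higher, beside 3.63% of all genes, with 5 higher at an unadjusted p below 0.05 and 0 called higher by DESeq2. The shares of all genes at an unadjusted p below 0.05 and by DESeq2 were not counted. The libraries did not overlap for 21 genes that were lower and 4 that were higher (13.1% and 12.6% of all genes). The median log2 fold change of the 34 was −0.24, with 28 below 0, beside −0.006 for all tested genes. Without OCsCtr 1 the number called was 10, the added genes being *Gaa*, *Mcoln1*, *Naglu* and *Smpd1* at −0.51 to −0.55. Both comparisons use the same OCsCtr libraries, so their values are set side by side below and are not independent of each other. All 34 are well expressed, and among the 6836 tested genes with a mean level at least that of the lowest of them (15 CPM), 14.3% rose and 13.7% fell in OCsEo, and 19.9% rose and 17.6% fell in OCsEoS.

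**Figure D2:**
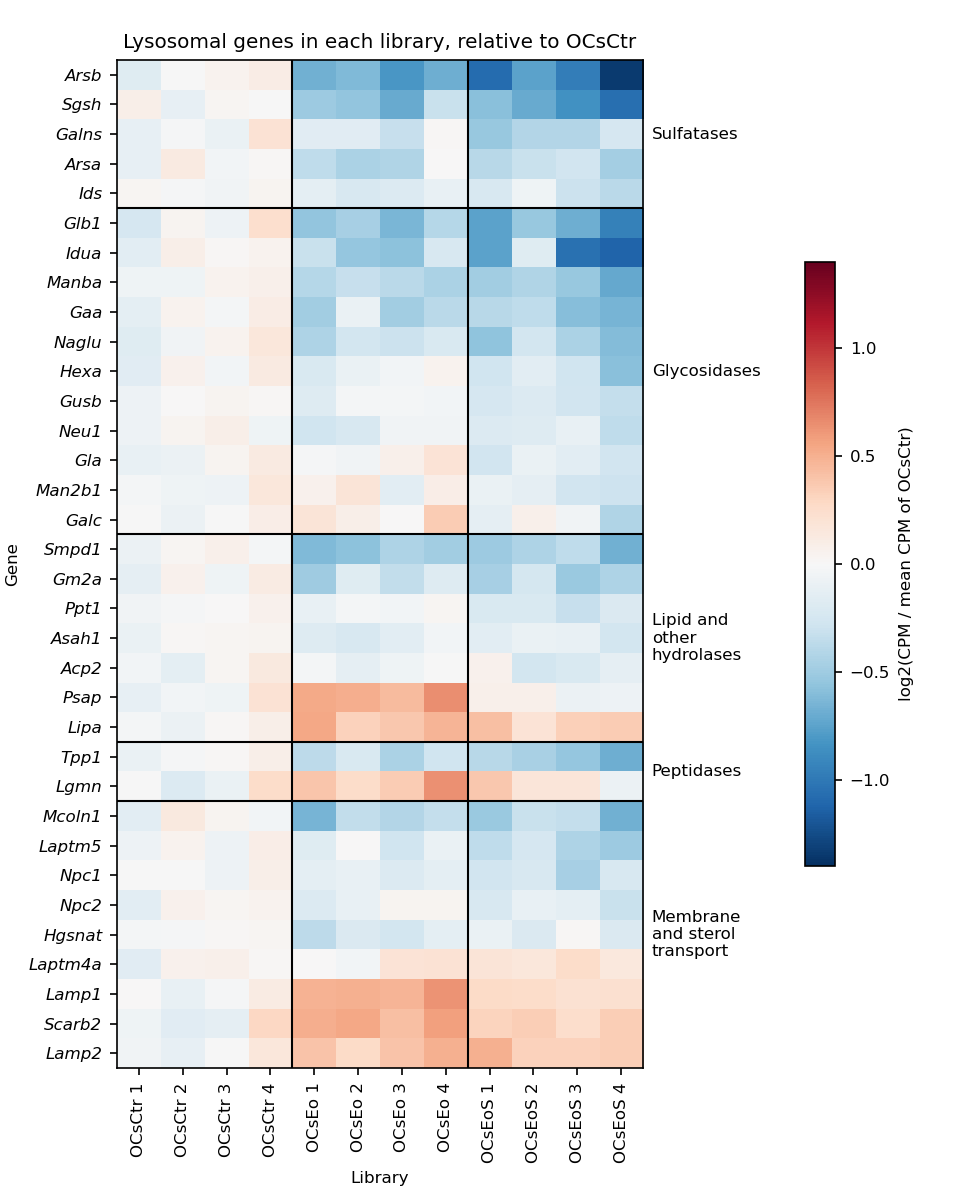
Each row is a lysosomal gene and each column a library, grouped by role and by group. Colour gives log2 of the CPM over the mean CPM of the OCsCtr libraries. *Arsb*, *Sgsh* and *Glb1* are blue in all 8 stimulated libraries, and *Lamp1*, *Lamp2*, *Scarb2* and *Lipa* are red in all 8. *Psap* is redder in the 4 OCsEo libraries than in any other library.

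The sulfatases among the 34, which remove sulfate groups from glycosaminoglycans and sulfatides, all had lower means after either stimulus. With supernatant all 5 fell, and with eosinophils 3 of 5 fell. Among tested genes at 15 CPM or more, 17.6% fell with supernatant and 13.7% with eosinophils. *Arsb* (ENSMUSG00000042082, chr13:93771679-93943016), the sulfatase of dermatan and chondroitin sulfate, changed most. Its level was 272, 306, 318 and 329 CPM in the OCsCtr libraries, with 192, 199, 174 and 191 in OCsEo, and 145, 182, 156 and 121 in OCsEoS. Every stimulated library lay below every control. The log2 fold change was −0.70 ± 0.09 (SE, adjusted p = 3.88e-05) in OCsEo and −1.02 ± 0.09 (adjusted p = 9.86e-07) in OCsEoS, or −38.4% and −50.7%, and *Arsb* was called under every alternative in both comparisons. *Sgsh*, which takes sulfate off the amino group of glucosamine in heparan sulfate, was at 45, 39.2, 43.3 and 42.2 CPM in OCsCtr, with 29.8, 29, 26 and 34.1 in OCsEo and 28.3, 26.1, 23.6 and 20.4 in OCsEoS. Again no stimulated library reached a control, with changes of −0.51 ± 0.10 (adjusted p = 0.00192) and −0.79 ± 0.11 (adjusted p = 3.42e-05). The OCsEo value of *Sgsh* came under the fold threshold without OCsCtr 1 (−0.49) or OCsEo 3 (−0.46), or with a trend with gene length taken out (−0.50). Exons of *Sgsh* share 955 of 4414 bases with *Card14* on the other strand, at 4.63 CPM.

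The remaining sulfatases moved less. *Arsa*, which acts on sulfatide, changed by −0.29 for OCsEo (adjusted p = 0.032) and −0.36 for OCsEoS (adjusted p = 0.00791). The OCsEo change of *Arsa* did not pass without OCsCtr 2 (adjusted p = 0.122), and also without OCsCtr 3, OCsCtr 4, OCsEo 1, OCsEo 2 or OCsEo 3 (adjusted p = 0.058 to 0.1). In OCsEo 4 it stood at 66.6 CPM, inside the control range of 61.4 to 72.9. *Galns*, a sulfatase of keratan and chondroitin sulfate, fell by 0.39 on the log2 scale in OCsEoS (adjusted p = 0.00594) and was at −0.15 in OCsEo (adjusted p = 0.322). *Ids*, the iduronate sulfatase, fell by 0.24 on the log2 scale in OCsEoS (adjusted p = 0.0249), a change that lost the threshold without OCsCtr 1, 2 or 4 or without OCsEoS 1, 3 or 4 (adjusted p = 0.052 to 0.1).

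Of the 11 glycosidases, which clip sugars from glycan chains, 4 fell in OCsEo and 8 fell in OCsEoS, and the others did not pass the test. Among tested genes at 15 CPM or more, 13.7% fell in OCsEo and 17.6% in OCsEoS. *Glb1* (ENSMUSG00000045594, chr9:114401076-114474376), the acid beta-galactosidase that acts on keratan sulfate and the ganglioside GM1, was at 136, 164, 152 and 188 CPM in OCsCtr, with 109, 116, 103 and 121 in OCsEo and 95.1, 111, 99.8 and 83.3 in OCsEoS. All 8 stimulated libraries lay below all controls. The change of *Glb1* was −0.51 ± 0.09 (adjusted p = 8.36e-04) in OCsEo and −0.72 ± 0.09 (adjusted p = 2.68e-05) in OCsEoS. In OCsEo it fell short of the fold threshold without OCsCtr 2 (−0.49), OCsCtr 4 (−0.42), OCsEo 1 (−0.50) or OCsEo 3 (−0.47). *Idua* was at 17.2, 20.2, 19.3 and 19.7 CPM in OCsCtr, with 15.4, 13.1, 12.8 and 16.4 in OCsEo and 11.4, 17, 9.26 and 8.78 in OCsEoS. Neither stimulated group overlapped the controls, but its libraries spread widely at this low level, and in the fit of all groups the OCsEoS change of −0.72 ± 0.17 passed (adjusted p = 0.00376), while OCsEo was at −0.41 ± 0.17 (adjusted p = 0.0982, or 0.0288 without OCsEoS 2, which enters this comparison through the shared estimate of the spread). The OCsEo change of *Idua* also passed by DESeq2 (adjusted p = 0.00977) and edgeR (adjusted p = 0.02) on the compared groups alone and with no filter on low counts (adjusted p = 0.0461). Exons of *Idua* share 124 bases with *Dgkq* on the other strand, itself at 12.4 CPM, and exons of *Glb1* share 165 bases with *Tmppe* on the same strand, at 23.8 CPM. Whether the counting used strand is not given in the sources used here, so reads from shared bases on opposite strands cannot be told apart. *Manba*, the beta-mannosidase, was at 87.2, 87.6, 94.6 and 95.6 CPM in OCsCtr, with 69.2, 72.7, 70.2 and 67.3 in OCsEo and 65.3, 68, 63.4 and 55.4 in OCsEoS. It fell by 0.39 on the log2 scale for OCsEo (adjusted p = 8.53e-04) and by 0.53 for OCsEoS (adjusted p = 3.12e-05), the latter at −0.47 without OCsEoS 4 and −0.44 with a gene length trend taken out.

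*Gaa*, which degrades glycogen, fell by 0.35 on the log2 scale in OCsEo and by 0.49 in OCsEoS (adjusted p = 0.011 and 6.60e-04). The second value was −0.50 to −0.55 without OCsCtr 1, OCsEo 1, OCsEoS 1 or OCsEoS 2, which put *Gaa* past the fold threshold. *Naglu*, a heparan sulfate glucosaminidase, fell by 0.30 and 0.46 (adjusted p = 0.0146 and 4.01e-04), the first being lost without OCsCtr 4 (adjusted p = 0.0643) or OCsEo 1 (adjusted p = 0.058), and the second reaching −0.52 without OCsCtr 1 and −0.53 without OCsEoS 2. *Hexa*, at 1068, 1243, 1159 and 1302 CPM in OCsCtr, was at 1029, 1120, 1158 and 1239 in OCsEo and at 981, 1080, 985 and 795 in OCsEoS. Its OCsEo libraries covered much the same range as the controls (−0.07, adjusted p = 0.625), whereas in OCsEoS it fell by 0.31 on the log2 scale (adjusted p = 0.00759). *Gusb*, the beta-glucuronidase, and *Neu1*, the sialidase, fell by 0.25 and 0.20 on the log2 scale in OCsEoS (adjusted p = 0.00148 and 0.0478), and neither passed in OCsEo. The *Neu1* change did not pass without OCsCtr 2, 3 or 4 or OCsEoS 1, 2 or 4 (adjusted p = 0.0566 to 0.182), nor with DESeq2 size factors (adjusted p = 0.0579). *Gla*, *Man2b1* and *Galc*, the alpha-galactosidase, alpha-mannosidase and galactosylceramidase, did not pass in either comparison and lay between −0.19 and 0.16. In OCsEoS, *Gla* passed without OCsCtr 1 (adjusted p = 0.046) and *Man2b1* without OCsEo 3 (adjusted p = 0.0481).

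Grouped by substrate, the glycosaminoglycan enzymes had log2 fold changes below 0 throughout. For heparan sulfate, 3 of 6 genes fell in OCsEo and 5 of 6 in OCsEoS, with medians of −0.27 and −0.36, where 8.35% and 11.2% of all tested genes fell, and 13.7% and 17.6% of those at 15 CPM or more. For keratan, chondroitin and dermatan sulfate, 2 of 7 fell in OCsEo and all 7 in OCsEoS, with medians of −0.16 and −0.39. For sphingolipids, 1 of 10 rose and 4 fell in OCsEo, and 6 of 10 fell in OCsEoS. Cholesterol release and egress differed in composition, with *Lipa* and *Scarb2* up in both comparisons and *Npc1* and *Npc2* down in OCsEoS. Some genes count in more than 1 of these pathways.

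**Figure D3:**
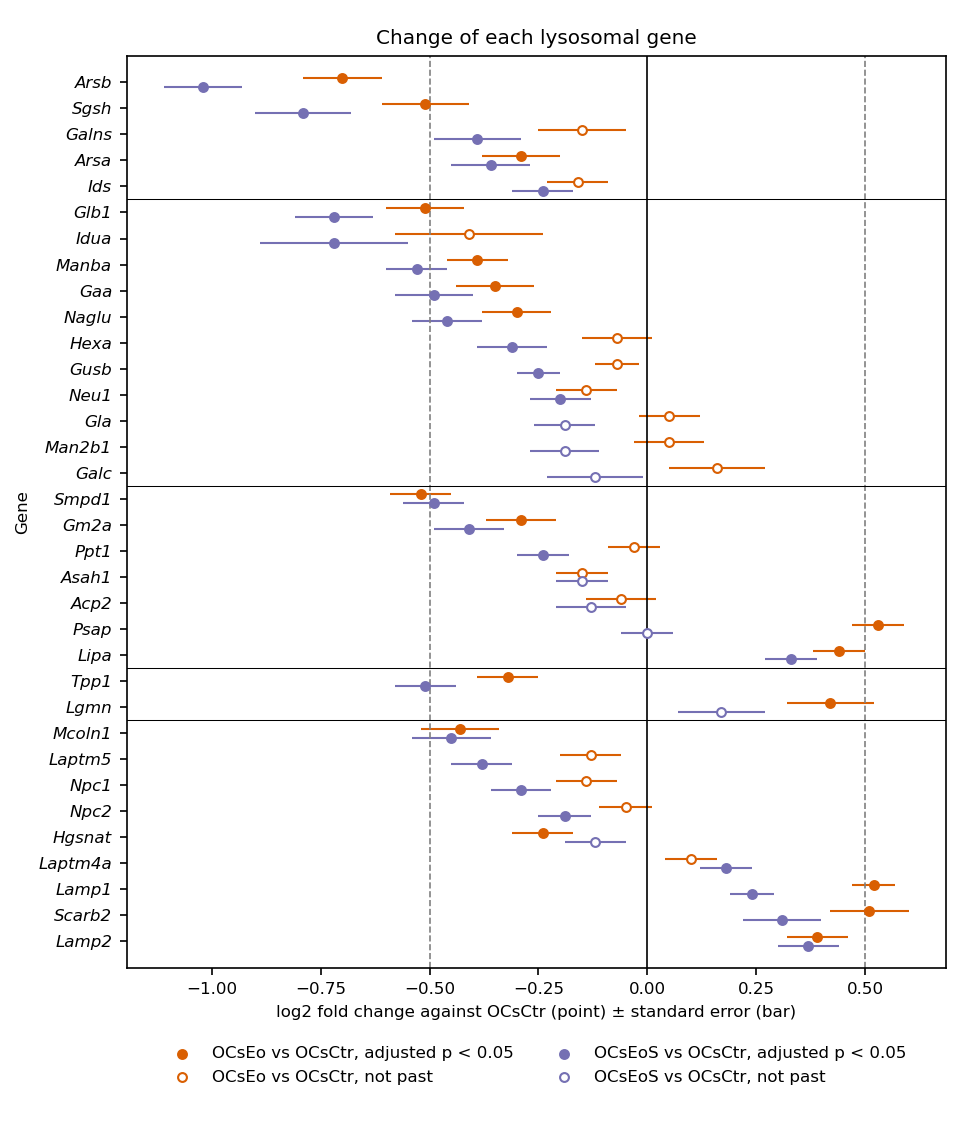
Log2 fold change against OCsCtr of each lysosomal gene, with bars for the SE, in OCsEo (orange) and OCsEoS (purple). Filled points have an adjusted p below 0.05, dashed lines mark the fold threshold of 0.5, and solid horizontal lines separate the roles. *Arsb* is farthest to the left at −1.02 in OCsEoS, and *Psap* is at 0.53 in OCsEo and at 0 in OCsEoS.

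The lipid hydrolases and their activators split. *Psap* (ENSMUSG00000004207, chr10:60277627-60302597) was at 1865, 1976, 1938 and 2327 CPM in OCsCtr, with 2928, 2886, 2750 and 3173 in OCsEo, and 2121, 2122, 1916 and 1926 in OCsEoS. The 4 libraries with eosinophils stood clear above all others, while the supernatant libraries lay inside the control range. The change was 0.53 ± 0.06 (adjusted p = 1.53e-05) in OCsEo and −0.00 ± 0.06 (adjusted p = 0.977) in OCsEoS. Compared directly, OCsEoS was below OCsEo by −0.54 ± 0.06 (adjusted p = 1.57e-04), which was −0.50 and no longer past the fold threshold without OCsEo 4 (adjusted p = 0.00127). Against OCsCtr, the OCsEo value was 0.49 without OCsCtr 1.

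*Lipa* (ENSMUSG00000024781), the acid lipase that frees cholesterol from its esters, rose with either stimulus. It was at 538, 517, 552 and 579 CPM in OCsCtr, with 798, 684, 712 and 762 in OCsEo and 732, 623, 690 and 701 in OCsEoS. All stimulated libraries exceeded all controls, by 0.44 ± 0.06 (adjusted p = 7.22e-05) and 0.33 ± 0.06 (adjusted p = 6.24e-04). *Smpd1*, the acid sphingomyelinase, went the other way, from 230, 249, 256 and 239 CPM in OCsCtr to 159, 163, 180 and 174 in OCsEo and 171, 181, 190 and 153 in OCsEoS. Both stimulated groups lay below all controls, with changes of −0.52 ± 0.07 (adjusted p = 3.27e-05) and −0.49 ± 0.07 (adjusted p = 4.94e-05). These lie on either side of the fold threshold by a small margin, and the OCsEo value was −0.50 without OCsCtr 3 or OCsEo 1 while the OCsEoS value was −0.52 without OCsCtr 1 and −0.53 without OCsEoS 3. *Gm2a*, the activator that lifts the ganglioside GM2 to beta-hexosaminidase, fell by 0.29 and 0.41 on the log2 scale (adjusted p = 0.012 and 7.31e-04), the former with an adjusted p of 0.0505 without OCsEo 1. *Ppt1*, the palmitoyl-protein thioesterase, fell by 0.24 on the log2 scale in OCsEoS (adjusted p = 0.00858) and was at −0.03 in OCsEo (adjusted p = 0.791), and its exons share 129 bases with *Cap1* on the other strand, at 964 CPM. *Asah1*, the acid ceramidase, and *Acp2*, the lysosomal acid phosphatase, did not pass in either comparison and lay between −0.15 and −0.06, although *Asah1* passed in OCsEo without OCsEo 4 (adjusted p = 0.0494) and in OCsEoS without OCsCtr 1 (adjusted p = 0.0455).

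The peptidases moved apart. *Tpp1*, which removes tripeptides from the N-terminus, was at 286, 302, 308 and 323 CPM in OCsCtr, with 236, 263, 225 and 252 in OCsEo and 232, 222, 210 and 190 in OCsEoS. No stimulated library reached a control, with changes of −0.32 ± 0.07 (adjusted p = 0.00246) and −0.51 ± 0.07 (adjusted p = 3.05e-05). The OCsEoS value of *Tpp1* was −0.48 without OCsCtr 4 and −0.45 without OCsEoS 4. *Lgmn*, the asparaginyl endopeptidase that also matures cathepsins, was at 207, 182, 195 and 249 CPM in OCsCtr, with 272, 249, 266 and 325 in OCsEo and 271, 235, 234 and 196 in OCsEoS. The lowest OCsEo library was level with the highest control at the digits shown, and *Lgmn* rose by 0.42 ± 0.10 (adjusted p = 0.00667) in OCsEo, or 0.51 without OCsCtr 4. In OCsEoS the libraries overlapped the controls (0.17 ± 0.10, adjusted p = 0.259).

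Of the 9 membrane proteins and sterol carriers, 3 rose and 2 fell in OCsEo, and 4 rose and 4 fell in OCsEoS. Among tested genes at 15 CPM or more, 14.3% rose and 13.7% fell in OCsEo, and 19.9% rose and 17.6% fell in OCsEoS. *Lamp1*, *Lamp2* and *Scarb2* rose in both. *Lamp1* (ENSMUSG00000031447, chr8:13159135-13175338), an abundant glycoprotein of that membrane, was at 554, 514, 546 and 599 CPM in OCsCtr, with 774, 780, 769 and 856 in OCsEo and 666, 663, 641 and 646 in OCsEoS. The 3 groups did not overlap at all, with OCsEoS in the middle. *Lamp1* rose by 0.52 ± 0.05 (adjusted p = 2.73e-06) in OCsEo and by 0.24 ± 0.05 (adjusted p = 0.0031) in OCsEoS. The OCsEo value was 0.49 without OCsCtr 2. Its relative *Lamp2* was at 225, 216, 233 and 260 CPM in OCsCtr, with 307, 281, 308 and 330 in OCsEo and 330, 293, 291 and 297 in OCsEoS. Here both stimulated groups lay above the controls at about the same level, with changes of 0.39 ± 0.07 (adjusted p = 4.65e-04) and 0.37 ± 0.07 (adjusted p = 4.72e-04). The direct difference of *Lamp2* between the stimulated groups was −0.02 ± 0.07 (adjusted p = 0.952).

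*Scarb2*, also named LIMP-2, the membrane receptor that carries glucocerebrosidase to the lysosome, was at 40.9, 38.3, 39.3 and 52.4 CPM in OCsCtr, with 61, 62.1, 57.1 and 63.4 in OCsEo and 53.1, 54.4, 50.6 and 54.3 in OCsEoS. OCsCtr 4 stood apart from the other controls and within the OCsEoS range. The change was 0.51 ± 0.09 (adjusted p = 4.76e-04) in OCsEo and 0.31 ± 0.09 (adjusted p = 0.0137) in OCsEoS. The first was 0.47 to 0.49 without OCsCtr 1, 2 or 3, and the second had an adjusted p of 0.0551 without OCsCtr 2 and 0.0511 without OCsCtr 3. *Laptm4a*, a small membrane-spanning protein, was at 317, 367, 369 and 357 CPM in OCsCtr, with 355, 344, 403 and 405 in OCsEo and 399, 393, 420 and 390 in OCsEoS. The OCsEo libraries of *Laptm4a* overlapped the controls (0.10, adjusted p = 0.352) and the OCsEoS libraries did not (0.18, adjusted p = 0.0453), yet that change stopped passing when most libraries were left out in turn, with an adjusted p of 0.195 without OCsCtr 1 and 0.0508 to 0.117 without OCsCtr 2 or 4, OCsEo 1, or any of the OCsEoS libraries.

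The channel, the carriers and the remaining membrane proteins did not share this direction. *Mcoln1*, the lysosomal calcium channel TRPML1, was at 63.4, 77.4, 72.3 and 68.7 CPM in OCsCtr, with 44.9, 55.3, 53.2 and 55.8 in OCsEo and 49.2, 56.8, 55.9 and 44.2 in OCsEoS. All 8 stimulated libraries lay below the controls, with changes of −0.43 ± 0.09 (adjusted p = 0.00276) and −0.45 ± 0.09 (adjusted p = 0.00139). *Npc2* was at 1715, 1986, 1937 and 1961 CPM in OCsCtr, with 1668, 1772, 1952 and 1950 in OCsEo and 1626, 1764, 1730 and 1530 in OCsEoS. Its groups overlapped in part, and the OCsEoS change of −0.19 ± 0.06 (adjusted p = 0.0313) was lost without OCsCtr 2, 3 or 4 or OCsEoS 1 or 4 (adjusted p = 0.0831 to 0.137). *Npc1* was at 75, 75.2, 71.6 and 79.8 CPM in OCsCtr, with 68.7, 69.9, 66.2 and 68.5 in OCsEo and 62.6, 64.4, 54.7 and 64.5 in OCsEoS. The groups stood in steps with no overlap, although for *Npc1* the OCsEo change did not pass (−0.14 ± 0.07, adjusted p = 0.174) and the OCsEoS change did (−0.29 ± 0.07, adjusted p = 0.00408), and it was −0.13 (adjusted p = 0.15) once a trend with gene length was taken out. Its exons also share 511 bases with *Rmc1* on the other strand, at 42.7 CPM. *Laptm5*, a lysosomal protein of blood cells, fell by 0.38 on the log2 scale in OCsEoS (adjusted p = 4.07e-04) and was at −0.13 in OCsEo (adjusted p = 0.209). *Hgsnat*, which acetylates heparan sulfate from the membrane, fell by 0.24 on the log2 scale in OCsEo (adjusted p = 0.0258) and was at −0.12 in OCsEoS (adjusted p = 0.266). The *Hgsnat* change did not pass without OCsCtr 2, 3 or 4 or OCsEo 1 or 3 (adjusted p = 0.0547 to 0.09).

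**Figure D4:**
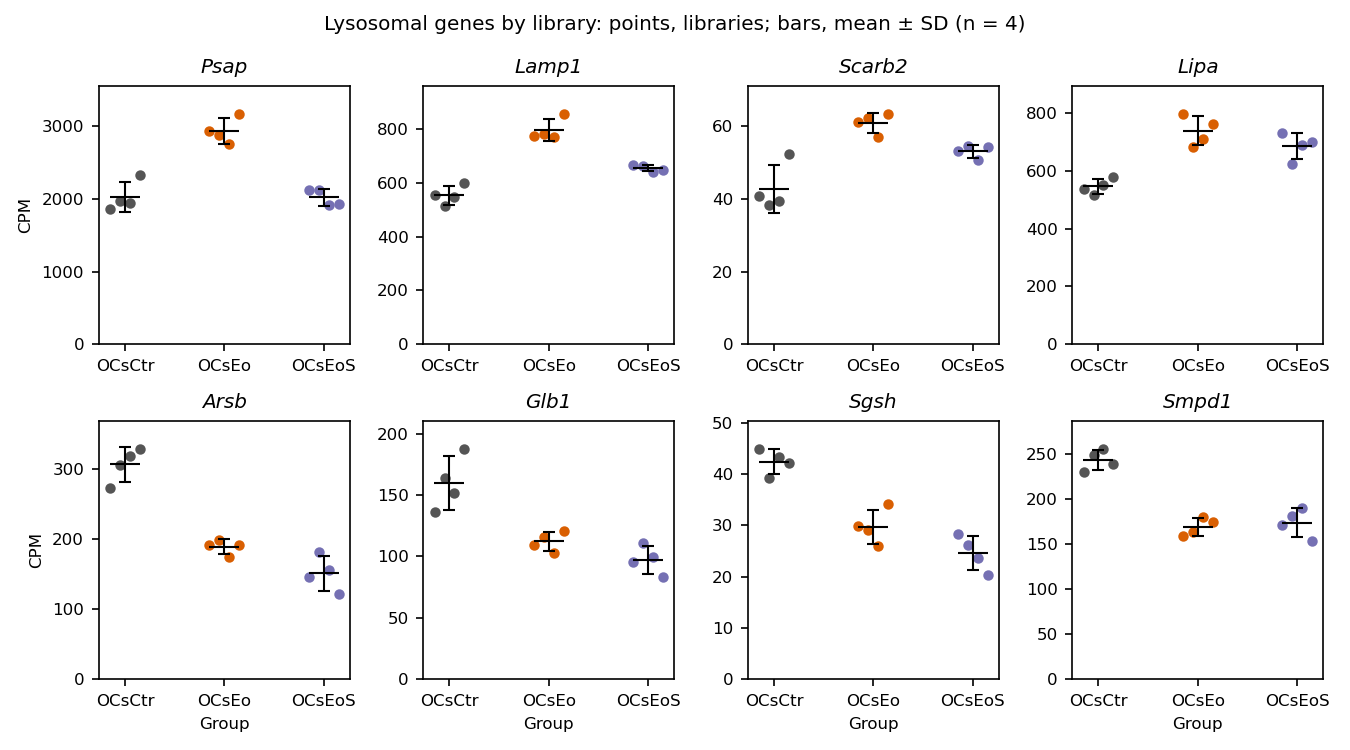
CPM of 8 lysosomal genes in each of the 12 libraries (points), with the mean and SD of each group of 4 (bars); every axis starts at 0. *Psap* is high in OCsEo only, *Lamp1* is graded, *Lipa* is high in both stimulated groups, and the lower row shows *Arsb*, *Glb1*, *Sgsh* and *Smpd1* below the controls in both.

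Set directly against each other, the supernatant group was the lower for most lysosomal genes, by small amounts. Of the 34, 30 had a log2 fold change below 0 in OCsEoS against OCsEo, with a median of −0.17 beside 0.002 for all tested genes. By edgeR, *Psap* was the only gene called lower, 1 of 34 beside 0.307% of all genes. Past the adjusted p alone, *Lamp1* fell too, at −0.28 ± 0.05 (adjusted p = 0.0214), making 2 of 34 beside 0.497% of all genes. *Lamp1* lost this without OCsEo 4 or OCsEoS 1, 3 or 4 (adjusted p = 0.0572 to 0.0818). Another 16 genes had an unadjusted p below 0.05, and DESeq2 placed 5 of the 34 past its adjusted p. For both of these counts the share of all tested genes was not counted, so neither is set against a background. The libraries did not overlap for 7 genes that were lower, *Gla*, *Gusb*, *Lamp1*, *Npc1*, *Ppt1*, *Psap* and *Scarb2*, beside 3.06% of all genes. *Arsb*, at −0.32 ± 0.09 (adjusted p = 0.151), *Gusb*, at −0.18 ± 0.05 (adjusted p = 0.145), and *Laptm5*, at −0.25 ± 0.07 (adjusted p = 0.116), did not pass. Those 3 passed by DESeq2 on all libraries, and *Arsb* and *Laptm5* also passed by edgeR without OCsEoS 2 (adjusted p = 0.026 and 0.0461). With no filter on low counts, *Arsb*, *Laptm5* and *Hexa* passed (adjusted p = 0.00515, 0.0142 and 0.0292).

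Added up, the 34 genes took 1.19% ± 0.0658 of all counts in OCsCtr, 1.24% ± 0.0482 in OCsEo and 1.06% ± 0.0534 in OCsEoS (SD, n = 4). The OCsCtr libraries ranged from 1.13% to 1.28%, those of OCsEo from 1.19% to 1.31%, and those of OCsEoS from 0.994% to 1.11%, so only the last stood apart. Without *Psap*, the most abundant of them, the shares were 0.981% ± 0.0454, 0.952% ± 0.0327 and 0.858% ± 0.0434, and the OCsEo mean was then below that of OCsCtr.

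Since *Psap* and *Lamp1* were highest with eosinophils in the well, markers of other cells were read beside them. The summed level of 8 neutrophil genes was 305 to 442 CPM in OCsCtr, against 445 to 591 in OCsEo and 351 to 415 in OCsEoS, and so was higher in every OCsEo library. Of 9 eosinophil genes, *Epx*, *Ear1*, *Ear6*, *Prg3* and *Il5ra* were below the filter in all groups, and *Siglecf* was at 0.428 ± 0.199 CPM in OCsCtr, against 2.94 ± 0.317 in OCsEo and 0.827 ± 0.454 in OCsEoS. The other tested eosinophil genes did not rise in OCsEo, where *Prg2* was at −0.01, *Ear2* at −0.20 and *Ccr3* at −0.29 (adjusted p = 0.0164). *Prg2*, the major basic protein of eosinophil granules, stood at 5.53 ± 1.92 CPM in OCsCtr and fell to 0.815 ± 0.838 in OCsEoS (−2.74, adjusted p = 0.00136). The eosinophil sum, mostly *Ccr3*, was 56.4 to 73.4, 53.8 to 65.5 and 48.7 to 54.4 CPM. The part of neutrophil and residual eosinophil RNA in the OCsEo values was not tested. Markers of monocytes and macrophages summed to 1140 to 1327, 1282 to 1521 and 1187 to 1316 CPM, and among them *Cd14* and *Adgre1* rose in both comparisons. In OCsEoS alone, *Cx3cr1* (0.45) and *Mrc1* (0.80) rose and *Cd68* (−0.33) fell. The other markers on that list did not pass the test in either comparison. T cell markers summed to at most 4.49 CPM, B cell markers to at most 21.4 CPM and basophil and mast cell markers to at most 7.36 CPM in any library.

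A further list of 55 lysosomal genes outside the 34 gave a mixed picture, of which 54 were tested and *Mcoln3* was below the filter. In OCsEo 8 of these rose (14.8%, beside 9.06% of all tested genes and 14.3% of those at 15 CPM or more) and 12 fell (22.2%, beside 8.35% and 13.7%). In OCsEoS 7 rose (13%, beside 11.8% and 19.9%) and 17 fell (31.5%, beside 11.2% and 17.6%). Called higher in both comparisons were *Slc11a1*, the metal transporter of phagosomes (0.89 and 0.96), *Mcoln2*, a relative of *Mcoln1* (1.10 and 0.96), *Sort1*, a sorting receptor (0.81 and 0.79), and *Ggh*, the gamma-glutamyl hydrolase (0.56 and 0.53). *Mcoln2* thus rose where *Mcoln1* fell, though from only 3.13 ± 0.791 CPM in OCsCtr. Called lower in both were *Clcn7*, the chloride and proton exchanger of lysosome and ruffled border (−0.67 and −0.70), and *Gnptab*, which builds the mannose 6-phosphate tag on hydrolases (−0.64 and −0.81). *Ostm1*, the partner of *Clcn7*, fell by 0.34 and 0.48 on the log2 scale. *Pld3* resembled *Psap*, at 0.35 in OCsEo, −0.17 in OCsEoS (adjusted p = 0.14) and −0.52 between them (adjusted p = 0.00253).

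Among the MiT/TFE factors themselves, only *Tfec* passed the test. *Mitf*, *Tfe3* and *Tfeb* lay between −0.16 and 0.08 in both comparisons and did not pass the test. *Tfec*, the member of this family expressed mainly in macrophage-lineage cells, fell by 0.41 and 0.38 on the log2 scale (adjusted p = 0.00153 and 0.00207). Of the folliculin complex, which holds these factors in check through mTORC1 signalling, *Fnip1* fell by 0.31 and 0.61 on the log2 scale (adjusted p = 0.0263 and 1.30e-04), *Fnip2* fell by 0.32 in OCsEoS (adjusted p = 0.034), and *Flcn* was at −0.20 and −0.24 and did not pass. Transcript levels do not report where these proteins sit in the cell.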

How the data were processed

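Gene-level read counts of 12 libraries were used as deposited, as whole-number counts per gene in 1 table. Per the labels and the study's methods, the authors trimmed reads with fastp, aligned them to GRCm38/mm10 with HISAT2 2.0.5 and counted them with featureCounts. The strand setting of the counting is not given in the sources used here. The gene length in the deposited table equals the exon union of GENCODE vM21 for 21 of the 34 genes.

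Genes were filtered with filterByExpr (minimum count 10), scaled by TMM and tested in edgeR 4.0.16 (R 4.3.3) with glmQLFit and glmQLFTest, with all 12 libraries and 3 groups in 1 fit, and p-values were adjusted by the Benjamini-Hochberg method over 13681 genes. The thresholds were an adjusted p of 0.05 and a log2 fold change of 0.5. In every library, 99.96% or more of the reads fell on tested genes. CPM used the TMM-scaled library size, and levels between genes were set per kb of the table's gene length. The script was tested on simulated data. Between replicates, chi-square per degree of freedom was 10.3 to 36.9 over 18 pairs. Alternatives were DESeq2 1.42.0, its size factors in edgeR, fits on the groups compared only, other filters, no fold threshold, a replicate block, a gene length trend taken out, and each library left out. Promoters (250 bases before to 50 after the start) came from RefSeq.

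The members and lists were chosen with earlier results of these data known. Values per library are given for genes called in any comparison, for the 5 largest changes past the adjusted p in each direction in each comparison with OCsCtr, and for the 3 highest and 3 lowest levels in OCsCtr. Other genes outside the 34 were taken from lists of lysosomal genes, regulators and cell markers; those named are called ones and members of the same complexes, chosen after their values were seen, and some are not reported here.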

Additional observations from a re-analysis of the deposited data

Results flagged for a closer look

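In 4 of 102 groups of 4 libraries (34 genes in 3 groups), 1 library lay so far from the other 3 that its gap, over the group's whole range, passed Dixon's 95% value. Chance alone gives about 1 in 20 such groups. *Gusb* was at 759 CPM in OCsEo 1, with the other OCsEo libraries at 838 to 845. *Lamp1* was at 856 CPM in OCsEo 4, with the others at 769 to 780. *Lamp2* was at 330 CPM in OCsEoS 1, with the others at 291 to 297. *Ppt1* was at 70.6 CPM in OCsEoS 3, with the others at 76.2 to 76.8.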

How the results depend on the processing

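Counts of members called by fold threshold moved most, since many of the 34 genes lie near 0.5. With no threshold on the fold change, 18 members changed in OCsEo, 26 in OCsEoS and 2 in OCsEoS against OCsEo, in place of 7, 6 and 1. Leaving out 1 library at a time gave 4 to 7, 4 to 10 and 0 to 1 members called. In OCsEoS against OCsEo, members past the adjusted p alone numbered 2, but 5 by DESeq2 on all 12 libraries, 5 with no filter on low counts and 1 to 4 with 1 library left out, and the cause was not tested. Of the members past the adjusted p, 14 of 18 in OCsEo, 20 of 26 in OCsEoS and 1 of 2 between them stayed past it under each of 20 alternatives, while 1 of 7, 4 of 6 and 0 of 1 stayed called. The value of *Psap* in OCsEoS against OCsCtr, −0.0038, changed sign with DESeq2 size factors (0.0011), DESeq2 on all libraries (0.0009), edgeR on the groups compared (0.0044), a minimum of 10 counts in every library (0.0046) and a replicate block (0.0005), and ran from −0.05 to 0.07 with 1 library left out, above 0 without OCsCtr 4, OCsEoS 3 or OCsEoS 4. Libraries of the same replicate number shared at most a weak pattern. Of 12 same-number pairs, 0 had a correlation of deviations above 0.1, but 9 of 12 libraries correlated best with their own number. These values do not settle whether the numbers pair the libraries, and the main fit used no replicate block. With the replicate block the members called stayed at 7, 6 and 1, and those past the adjusted p at 18, 26 and, between the stimulated groups, 3 (*Laptm5* added, adjusted p = 0.0279). With a gene length trend taken out, *Lamp1* and *Psap* in OCsEo were 0.46 and 0.49, *Lamp2* was 0.51 and 0.52 against OCsCtr, and *Laptm4a* no longer passed (adjusted p = 0.318).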
